A study of Mus musculus with 39 samples.

Results

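Cohesin is the protein ring that holds sister chromatids together, and germ cells replace several of its subunits when they enter meiosis. The genes described here are 8 cohesin subunits, taken by symbol from the 32285 genes listed for a pair of single-cell RNA-seq libraries of mouse testis, and all 8 were found once in each list. Rec8, Rad21l, Stag3 and Smc1b encode the meiotic subunits, Rad21, Stag2 and Smc1a their mitotic counterparts, and Smc3 the subunit that both kinds of ring share. In RefSeq's GRCm38.p6 the records lie at chr14:55618002-55625395 (Rec8), chr2:151644366-151670622 (Rad21l), chr5:138272514-138312397 (Stag3), chr15:85064689-85131957 (Smc1b), chr15:51962604-51993538 (Rad21), chrX:42149297-42277186 (Stag2), chrX:152016428-152061973 (Smc1a) and chr19:53600396-53645831 (Smc3). The series compared mice that lack Kdm6a, an X-linked gene also called Utx that encodes an H3K27 demethylase, in the male germ line with control mice, by single-cell and bulk RNA-seq, ATAC-seq and CUT&Tag. The control animals are labelled Kdm6a fl/y; Cre- and the knockouts Kdm6a fl/y; Ddx4-Cre+ (Utx cKO), so every animal carries the floxed allele and differs by the Cre. Ddx4 drives Cre in germ cells, which leaves Kdm6a intact in the somatic cells of the testis. Neither the ages of the mice nor how many animals went into a single-cell library are given in the labels.

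A cohesin ring joins an SMC1 and an SMC3 protein at a hinge, a kleisin closes it at the other end, and an SA (stromal antigen) protein binds the kleisin. Meiotic rings carry REC8 or RAD21L as kleisin, STAG3 as SA protein and, in many complexes, SMC1B. They form the chromosome axis on which homologues pair and synapse, and REC8 at the centromere keeps sister chromatids together until the second division. Separase cuts the kleisin, and mice without STAG3, REC8, RAD21L or SMC1B have meiotic arrest or sterility in males.

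The promoters of Stag3, Smc1b and Rec8 are shown because all 3 lay in open chromatin in cKIT+ spermatogonia, the sorted cells that precede meiosis, in every ATAC-seq library. The sequences are the 250 bases before the RefSeq start and the first 30 bases after it, read 5′ to 3′ on the gene's strand in build GRCm38.p6 (mm10). Stag3 is read from chr5:138280259-138280538 on the plus strand, Smc1b from chr15:85131928-85132207 on the minus strand and Rec8 from chr14:55617916-55618195 on the plus strand. Capitals mark TCCCGC or its reverse complement GCGGGA, letters found in binding sites of E2F factors, and CACGTG, the E-box read alike on both strands.
Stag3: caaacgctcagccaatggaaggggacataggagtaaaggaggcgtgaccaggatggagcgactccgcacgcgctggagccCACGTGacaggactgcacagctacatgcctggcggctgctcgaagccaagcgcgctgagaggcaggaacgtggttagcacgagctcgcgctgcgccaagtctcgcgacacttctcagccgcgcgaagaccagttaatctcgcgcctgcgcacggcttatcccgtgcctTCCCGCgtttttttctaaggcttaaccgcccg
Smc1b: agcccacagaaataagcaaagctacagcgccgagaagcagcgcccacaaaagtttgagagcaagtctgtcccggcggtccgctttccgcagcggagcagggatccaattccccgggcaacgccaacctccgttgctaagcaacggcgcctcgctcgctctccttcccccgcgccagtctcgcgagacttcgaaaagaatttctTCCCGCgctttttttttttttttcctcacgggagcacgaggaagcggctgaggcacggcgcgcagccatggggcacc
Rec8: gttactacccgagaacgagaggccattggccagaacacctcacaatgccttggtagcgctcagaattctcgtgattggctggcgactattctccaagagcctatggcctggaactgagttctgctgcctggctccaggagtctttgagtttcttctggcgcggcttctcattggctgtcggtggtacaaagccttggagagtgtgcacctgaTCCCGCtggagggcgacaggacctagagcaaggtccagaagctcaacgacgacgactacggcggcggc
As background, the repressor E2F6 is known to keep Stag3 and Smc1b silent in somatic cells. TCCCGC stood once in each of the 3 windows, starting 2 bases before the start of Stag3, 47 before that of Smc1b and 38 before that of Rec8, and its reverse complement stood in the window of Smc3. On either strand it occurred in 18.8% of all 32851 RefSeq windows of this length, and in 40.9% of the 11965 windows with at least 57% G and C, a class that holds these 4 promoters and that of Smc1a, which lacks it. CACGTG stood in the Stag3 window alone among the 6 member windows, against 6.79% of all windows and 10.0% of those with at least 57% G and C. These matches describe letters in the windows and say nothing of what binds there.

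ATAC-seq peaks, which the authors called in each library, covered the promoters of 5 of the 6 members with a RefSeq window. Rec8, Stag3, Smc1b, Smc1a and Smc3 each had a peak within 1000 bases of the start in all 5 libraries (2 control, 3 cKO), which 25.5% of 27025 genes had. Around the 5′ end of the gene record, base 138272514 of chromosome 5 for Stag3, the Stag3 count was 0 of 5 libraries. At the Stag3 start shown above the authors' fold enrichment was 6.97 and 7.20 in the control libraries and 7.20, 9.03 and 6.73 in the cKO libraries. At the Smc1b start it was 5.24 and 6.11 in the controls and 3.95, 4.39 and 6.20 in the cKO libraries, and at the Rec8 start 4.22 and 4.93 against 3.98, 5.67 and 5.33. At the Smc3 start it was 8.93 and 8.49 against 7.02, 8.49 and 9.05. At the Smc1a start it was 7.70 and 7.32 in the controls and 6.30, 5.99 and 6.90 in the cKO libraries. Peaks were thus present at these promoters before meiosis in either genotype. Fold enrichment ranks peaks within a library only, so no change was read from it.

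No peak lay within 1000 bases of the start listed for Rad21l, at base 151668533 of chromosome 2. The gene record itself extends to base 151670622, and around that 5′ end all 5 libraries had a peak, with a fold enrichment of 4.96 and 5.85 in the controls and 4.66, 5.52 and 5.72 in the cKO libraries. H3K27me3, the repressive mark that Kdm6a removes, had a called region near the start of 1 of the 6 members: Rec8, in 1 of 3 cKO and 0 of 2 control libraries. At least 1 of these 5 libraries had such a region at 17.7% of all genes. At the outer 5′ end of Rad21l a region was called in 1 of 2 control and 1 of 3 cKO libraries. With 2 against 3 libraries these are counts of libraries, with no test.

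Each single-cell library holds 3′ tags of polyadenylated RNA counted as UMIs (unique molecular identifiers, 1 for each captured transcript), so a gene's level does not scale with its length. Levels are given as CPM, the UMIs of a gene per 1000000 UMIs of a class of cells, and capture may differ between transcripts. The control library held 229882646 UMIs and the cKO library 172368722, and 11252 and 8520 barcodes with at least 3000 UMIs were taken as cells, with a median of 8410.5 and 8499 UMIs. The 2 sets of cells shared 30 barcode sequences. There was 1 library per genotype, so no difference between the genotypes has a replicate check and no test was made. The 95% intervals printed cover counting error only. They are exact, except those of a difference between shares, which are approximate.

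Cells were assigned to a germ-cell class by 11 lists of marker genes that left out every cohesin gene, and 1351 control and 1115 cKO cells that lay near the border of 2 classes (12.0% and 13.1%) were left out. The 6 germ-cell classes, in the order control and cKO, were spermatogonia (178 and 176 cells), cells entering meiosis (119 and 38), early prophase (772 and 479), pachytene and later spermatocytes (2142 and 1589), round spermatids (1006 and 1079) and elongating spermatids (5486 and 3828). These classes are ranges of a marker score and not sharp types. Stra8, which licenses entry into meiosis, stood at 1061 and 899 CPM in cells entering meiosis. It stood at 249 and 237 in spermatogonia and at 0.730 and 0.693 in pachytene cells. Zbtb16, a marker of undifferentiated spermatogonia, stood at 61.97 and 77.55 in spermatogonia. Not every marker was highest in the class of its list. Dmc1, of the early prophase list, stood at 167 and 117 in cells entering meiosis and at 93.1 and 56.9 in early prophase. Piwil1, of the pachytene list, stood at 427 and 621 in early prophase and at 439 and 402 at pachytene. Kdm6a itself stood at 40.1 in the control and 10.2 in the cKO cells entering meiosis, at 18.7 and 2.05 in early prophase, and at 11.3 and 9.02 in spermatogonia. A 3′ tag can lie outside the deleted exons, so the remaining UMIs do not measure how complete the deletion was.

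Rad21l, the kleisin of early prophase axes, had the narrowest window of the 8 genes. In the control library it stood at 6.80 CPM in spermatogonia, 83.5 in cells entering meiosis (52 UMIs), 15.7 in early prophase, 0.0885 in pachytene and later cells and 0.114 in round spermatids. In the cKO library the same classes held 2.71, 61.0 (12 UMIs), 6.45, 0.0990 and 0.111. The gene was thus highest at the entry into meiosis and next highest in early prophase in either library. In the cKO library early prophase and spermatogonia did not differ beyond counting error (2.39-fold, 0.717 to 12.4). From early prophase to pachytene the log2 difference was -7.47 in the control (95% interval -9.38 to -6.06), and 4 UMIs remained in 2142 cells. Among cells entering meiosis, 28.6% of control and 23.7% of cKO cells had a Rad21l UMI, against 0 of 96 and 0 of 91 Leydig cells. With the limit for a count of 0 set at 3 cells of the total, this allows up to 3.12% and 3.30% of Leydig cells with a UMI. Rad21l UMIs were also nearly absent from free RNA, the barcodes with 10 to 100 UMIs that hold no cell, at 0.516 and 0 CPM.

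Rec8, the kleisin that lasts to the second division, had 2 maxima. It stood at 14.4 CPM in control spermatogonia, 49.8 in cells entering meiosis, 13.1 in early prophase, 12.5 in pachytene and later cells, 59.8 in round spermatids and 7.55 in elongating spermatids. In the cKO library it stood at 17.1, 91.5, 8.80, 17.4, 70.1 and 7.25 in the same order. Cells entering meiosis and round spermatids were the high classes in both libraries, and the levels of these 2 classes did not differ beyond counting error in either library. The round spermatid maximum rested on 1046 and 1264 UMIs, and 55.7% and 59.7% of those cells had a Rec8 UMI. After each cell was thinned to 3000 UMIs, which removes the difference in depth, 18.2% and 18.9% of round spermatids had one, against 5.42% and 4.53% of pachytene and later cells and 2.08% and 0% of Leydig cells, a somatic type.

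The Rec8 level of round spermatids was 4.79-fold (4.32 to 5.32) that of pachytene and later cells in the control and 4.03-fold (3.64 to 4.47) in the cKO library. Free RNA held 15.0 and 11.9 CPM of Rec8. Smc1a, at 28.9 and 25.3 CPM in free RNA, stood at only 1.66 and 0.888 in round spermatids, so RNA of that composition could make up at most 5.74% and 3.51% of their UMIs and give at most 0.859 and 0.418 CPM of Rec8. Rad21l did not come back with Rec8: of the meiotic kleisin UMIs, Rec8 gave 37.3% in control cells entering meiosis, 45.4% in early prophase, 99.3% in pachytene and later cells and 99.8% in round spermatids. In the cKO library these shares were 60.0%, 57.7%, 99.4% and 99.8%.

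Stag3, the meiosis-specific SA protein, was highest in cells entering meiosis and lower in each later class. It stood at 90.7, 310, 209, 168, 82.7 and 35.9 CPM in the 6 control classes from spermatogonia to elongating spermatids, and at 88.4, 234, 187, 150, 75.8 and 24.1 in the cKO classes. Smc1b, the meiotic SMC1, was the most abundant of the 8 in every germ-cell class of both libraries, at 538, 1299, 830, 393, 349 and 90.4 in the control and 473, 1276, 729, 356, 330 and 68.1 in the cKO library. Both genes followed the same course, with the highest level at entry into meiosis and lower levels in each later class. UMIs of both were also counted in spermatogonia: 91.0% of control and 86.4% of cKO spermatogonia had an Smc1b UMI, against 32.3% and 27.5% of Leydig cells. After thinning to 3000 UMIs the shares were 73.6% and 69.9% against 17.7% and 14.3%. A Stag3 UMI was found in 45.5% and 39.8% of spermatogonia against 21.9% and 15.4% of Leydig cells, or in 20.2% and 21.6% against 8.33% and 4.396% after thinning. In Leydig cells Smc1b stood at 58.5 and 82.3 and Stag3 at 31.6 and 26.0, below their levels in free RNA (106 and 106 for Smc1b, 45.4 and 42.2 for Stag3). Their Prm1 and Prm2 UMIs limit free RNA to 49.0% and 51.2% of the UMIs of Leydig cells. This could give at most 51.9 and 54.1 CPM of Smc1b and 22.3 and 21.6 of Stag3, below the levels in Leydig cells. Only for Smc1b in the cKO library was the interval (62.3 to 107) above that limit. In the spermatogonia class the 8 marker genes of the entry into meiosis summed to 1245 and 1035 CPM, against 3768 and 3257 in the cells entering meiosis, and their part in the spermatogonial levels was not tested. In elongating spermatids the levels of both genes were below those in free RNA, of which Smc1a allows at most 3.85% and 4.01% of UMIs, or at most 4.08 and 4.24 CPM of Smc1b and 1.75 and 1.69 of Stag3.

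**Figure D1:**
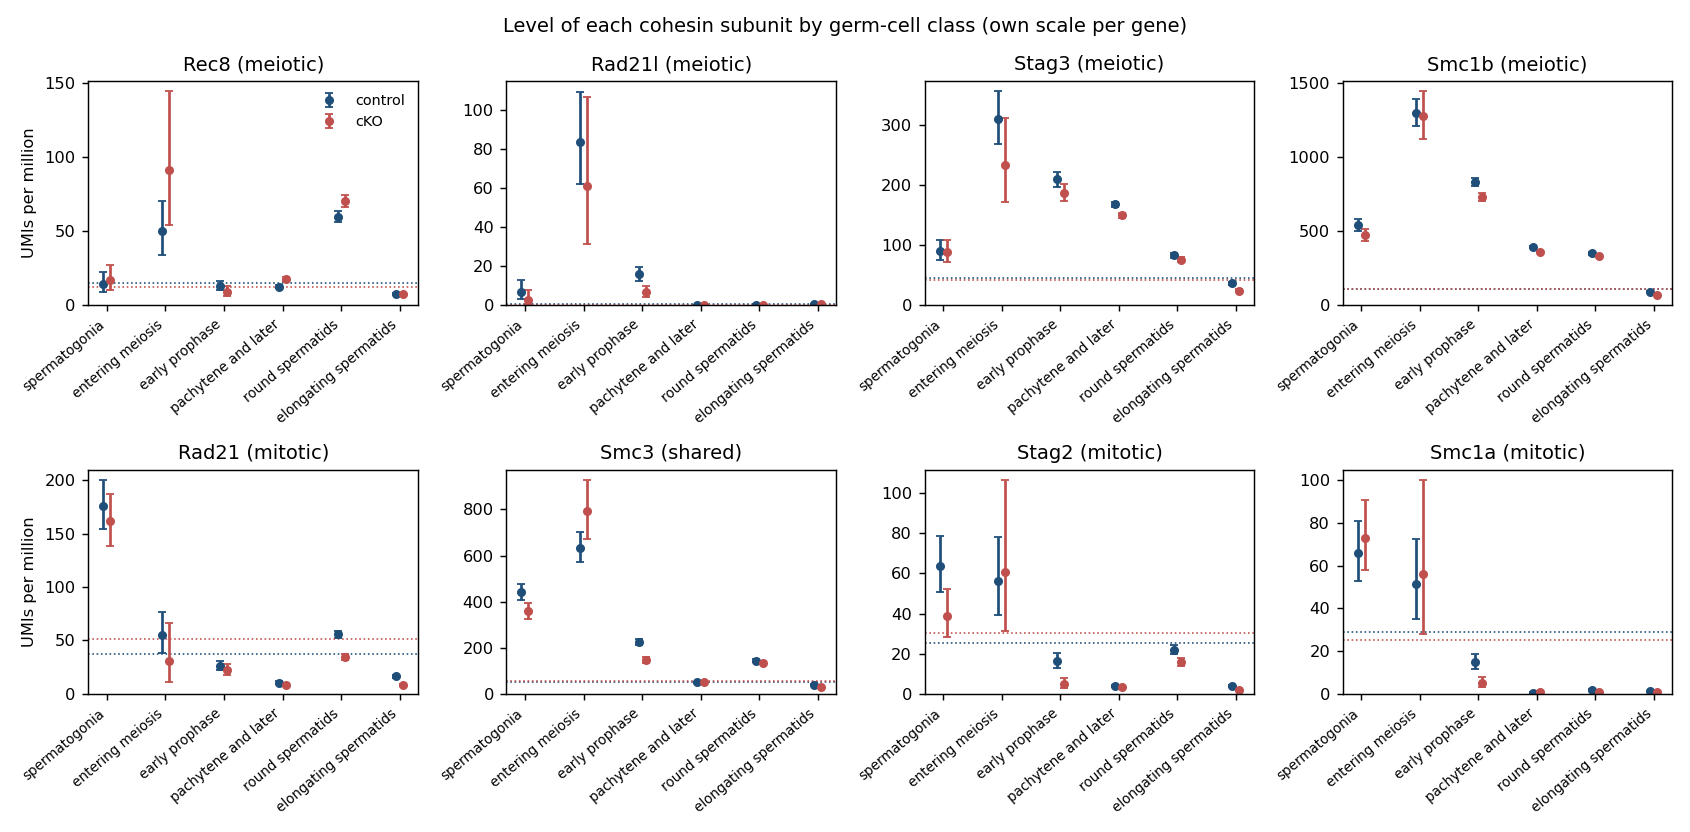
CPM of each cohesin subunit in 6 germ-cell classes of the control (blue) and cKO (red) library; bars are 95% counting intervals, dotted lines the level in free RNA, and each panel has its own linear axis from 0. Rad21l, Stag3 and Smc1b are highest in cells entering meiosis, Rec8 is high both there (49.8 and 91.5) and in round spermatids (59.8 and 70.1), and Stag2 and Smc1a are lower in early prophase and after it than in spermatogonia.

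Rad21, the kleisin of mitotic rings, was highest in spermatogonia and lowest at pachytene or later. It stood at 176, 54.6, 25.9, 10.4, 55.5 and 16.2 CPM in the control classes and at 161, 30.5, 22.3, 8.58, 34.0 and 8.33 in the cKO classes, in the order above. From pachytene to round spermatids it was higher by 5.32-fold (4.76 to 5.96) and 3.97-fold (3.42 to 4.60), the step at which Rec8 was also higher. Smc3, which has no meiotic version, stood at 441, 634, 224, 49.0, 143 and 38.9 in the control and at 358, 793, 148, 50.0, 135 and 27.6 in the cKO library. It was highest in cells entering meiosis and next highest in spermatogonia in both libraries, and lower in pachytene cells than in early prophase, with log2 differences of -2.19 (-2.29 to -2.09) and -1.56 (-1.71 to -1.41).

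Stag2 and Smc1a, the mitotic SA and SMC1 subunits, are both on the X chromosome, which is silenced at pachytene. Stag2 stood at 63.5, 56.2, 16.3, 3.92, 22.0 and 3.93 CPM in the control classes and at 38.8, 61.0, 4.99, 3.20, 15.7 and 1.79 in the cKO classes. Smc1a stood at 65.8, 51.4, 14.8, 0.465, 1.66 and 1.11 in the control and at 73.0, 55.9, 4.99, 0.825, 0.888 and 1.02 in the cKO library. In spermatogonia the intervals of Stag2 and Smc1a overlapped in the control library, whereas in the cKO library Stag2 (28.1 to 52.2) was below Smc1a (58.0 to 90.8). Smc1a was lowest in pachytene cells in both libraries. Stag2 was lowest there and in elongating spermatids in the control (3.92 and 3.93). In the cKO library Stag2 was lower in elongating spermatids (1.79, 1.33 to 2.35) than in pachytene cells (3.20, 2.60 to 3.90). Stag2 was 5.62-fold (4.69 to 6.76) and 4.91-fold (3.88 to 6.25) higher in round spermatids than in pachytene cells, at 22.0 and 15.7 CPM. Smc1a was 3.57-fold (1.97 to 6.59) higher in the control, on 21 and 29 UMIs, and 1.08-fold (0.537 to 2.10) in the cKO library, and its levels in round spermatids were 1.66 and 0.888 CPM. All X-linked genes together (979 of the 26335 genes with a chromosome in RefSeq) gave 1.78% of the UMIs of control spermatogonia, 2.20% in cells entering meiosis, 0.763% in early prophase, 0.213% at pachytene and 1.39% in round spermatids. In the cKO library the X gave 1.70%, 2.27%, 0.439%, 0.222% and 1.30%. The X-linked total, like Stag2, was thus higher in round spermatids than at pachytene in both libraries.

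**Figure D2:**
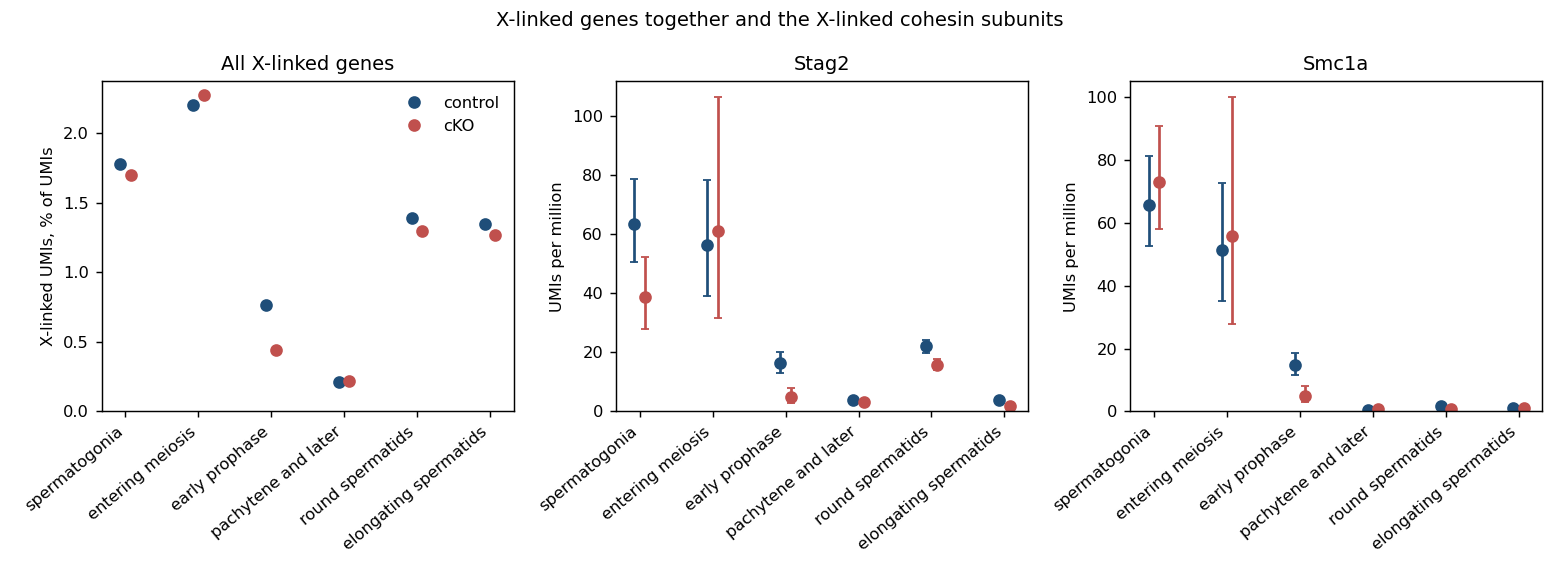
X-linked UMIs as a percentage of all UMIs (left), and CPM of the X-linked subunits Stag2 (middle) and Smc1a (right), by germ-cell class in the control (blue) and cKO (red) library, with 95% counting intervals in the right panels. The X-linked total and Stag2 are low at pachytene and higher again in round spermatids, where Smc1a is at 1.66 and 0.888, against 0.465 and 0.825 at pachytene.

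Steps between classes were then counted over the 8 subunits. From spermatogonia to cells entering meiosis, Rec8 (3.47-fold), Rad21l (12.3-fold), Stag3 (3.42-fold) and Smc1b (2.41-fold) were at least 2-fold higher in the control library, 4 of 8, against 9.81% of 9683 genes with at least 20 UMIs. Rad21 alone was at least 2-fold lower, at 0.310 of its level in spermatogonia, against 12.6% of genes, and Stag2 and Smc1a, at 0.885 and 0.781, had intervals that hold 1. In the cKO library Rec8, Stag3, Smc1b and Smc3 were at least 2-fold higher, 4 of 7 against 12.4% of 8241 genes, and Rad21 was at least 2-fold lower, against 14.7%. Rad21l, with 15 UMIs in the pair of classes, was not counted there. The marker lists hold no member, but the classes were drawn by genes of the same transition, so these counts describe the transition and are no test of it.

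From cells entering meiosis to early prophase no subunit was 2-fold higher in either library, whereas 15.5% and 20.4% of genes were. At least 2-fold lower were 6 of 8 in the control (Rec8, Rad21l, Rad21, Stag2, Smc1a and Smc3; 16.3% of genes) and 5 of 8 in the cKO library (the same genes without Rad21; 19.5%). Stag3 and Smc1b, at 0.676 and 0.639 of their level at entry in the control, were above that limit in both libraries. From early prophase to pachytene 6 of 8 control and 5 of 8 cKO genes were at least 2-fold lower again, against 31.7% and 29.6% of genes, and none was 2-fold higher, against 21.2% and 25.4%. The lower genes were Rad21l, Smc1b, Rad21, Smc1a and Smc3 in both libraries, and Stag2 in the control. Stag3 stood at 0.801 and 0.800 of its early prophase level, and Rec8 at 0.956 and 1.98. From pachytene to round spermatids Rec8, Rad21, Stag2, Smc1a and Smc3 were at least 2-fold higher in the control, 5 of 7 against 29.1%, and the same genes without Smc1a in the cKO library, 4 of 7 against 28.5%. Stag3 was at least 2-fold lower in the control, 1 of 7 against 37.6%, and no gene was in the cKO library, 0 of 7 against 35.4%. From round to elongating spermatids 6 of 8 and 6 of 7 were at least 2-fold lower, against 35.2% and 41% of genes. Rad21l was at least 2-fold higher in the control, on 2 and 20 UMIs, 1 of 8 against 14.5%, and no gene was in the cKO library, 0 of 7 against 13.3%.

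The exchange of mitotic for meiotic subunits was therefore measured within each pair of paralogs, as the share of the pair's UMIs that came from the meiotic gene. For the kleisins, Rec8 and Rad21l gave 10.7% (7.25 to 15.1) of the UMIs in control spermatogonia and 10.9% (6.99 to 16.1) in cKO spermatogonia, and 70.9% (61.8 to 79.0) and 83.3% (67.2 to 93.6) in cells entering meiosis. The meiotic kleisins were thus a minority before meiosis and the majority at entry in both libraries. In early prophase they gave 52.6% (46.7 to 58.5) and 40.6% (32.0 to 49.7). For the SA proteins Stag3 gave 58.8% and 69.5% of the Stag3 and Stag2 UMIs in spermatogonia, 84.6% and 79.3% at entry, 92.8% and 97.4% in early prophase and 97.7% and 97.9% at pachytene. Stag1, the other mitotic SA gene, is not among the 8; with it in the sum, Stag3 gave 24.7% and 28.8% in spermatogonia, 50.4% and 37.4% at entry, 50.5% and 52.8% in early prophase and 79.1% and 82.0% at pachytene. For SMC1, Smc1b gave 89.1% and 86.6% already in spermatogonia and 99.9% and 99.8% at pachytene.

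Between spermatogonia and early prophase the meiotic share was higher by 41.9 percentage points (34.5 to 48.7) in the control and 29.7 (19.7 to 39.5) in the cKO library for the kleisins. It was higher by 34.0 (26.95 to 41.19) and 27.9 (20.3 to 36.3) points for the SA proteins and by 9.14 (7.02 to 11.5) and 12.7 (10.0 to 15.7) for SMC1. The intervals of the 2 libraries overlapped for all 3 pairs. The size of the kleisin difference moved with the processing, to 28.8 and 17.9 points with a minimum of 5000 UMIs and to 65.4 and 90.8 with free RNA subtracted. The subtraction took 26.2 CPM of Rad21 off the cKO classes, above its level of 22.3 in early prophase, so the 90.8 is no usable size. Single cells were then sorted by the kleisins they held: in control spermatogonia 52.2% of 178 cells had Rad21 UMIs only, 2.25% meiotic kleisin UMIs only and 11.2% both, whereas among 119 cells entering meiosis 16.8% had Rad21 only, 42.9% meiotic only and 3.36% both. The cKO cells entering meiosis divided alike, with 10.5%, 42.1% and 5.26% of 38 cells. At these depths a cell without a UMI may still hold the transcript. A Rad21 UMI may also come from free RNA. In cells entering meiosis free RNA could give up to 21.4 of 54.6 CPM of Rad21 in the control and 18.7 of 30.5 in the cKO library.

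**Figure D3:**
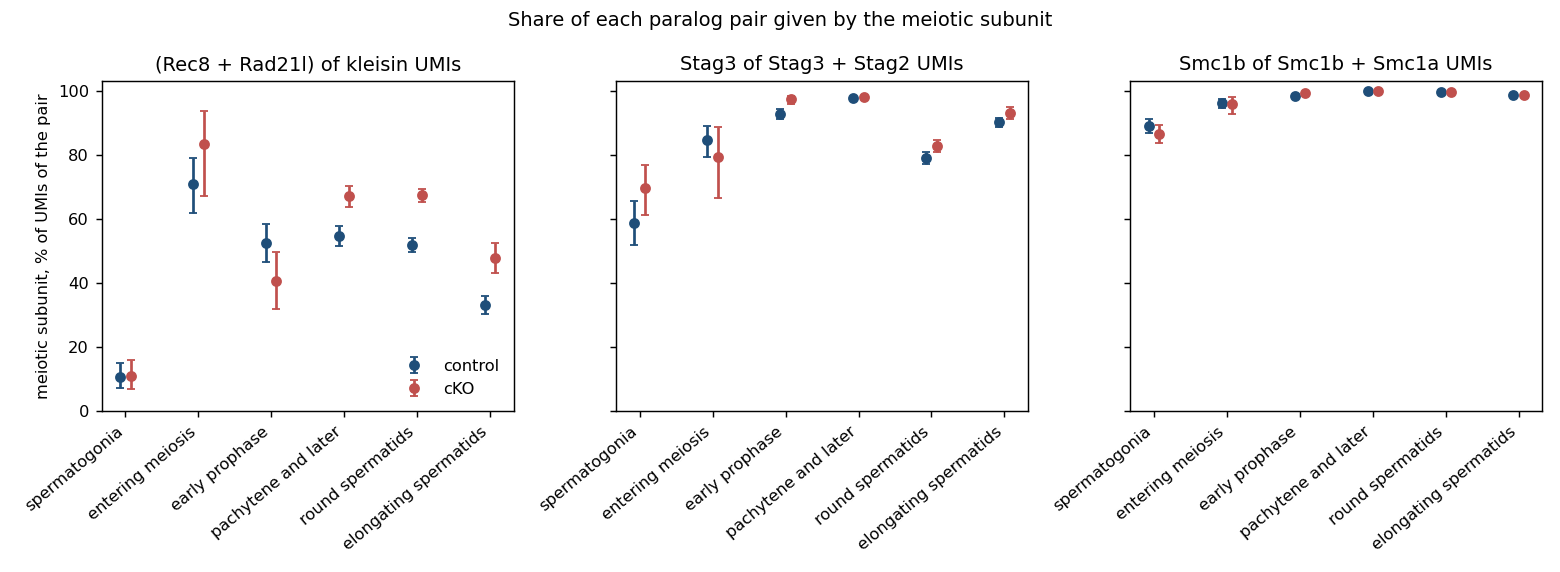
Share of the UMIs of each paralog pair that came from the meiotic gene (percent, 0 to 100), by germ-cell class in the control (blue) and cKO (red) library, with 95% exact binomial intervals. The kleisin share goes from 10.7% and 10.9% in spermatogonia to 70.9% and 83.3% in cells entering meiosis, while Smc1b gives 86.6% or more of the SMC1 pair in every class.

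The share of meiotic kleisin after early prophase differed between the libraries. At pachytene it was 54.7% (51.6 to 57.7) in the control and 67.1% (63.7 to 70.4) in the cKO library, and in round spermatids 51.9% (49.7 to 54.1) and 67.4% (65.2 to 69.5). Both sides of the pair differed: Rec8 was higher in cKO pachytene cells by 0.48 (0.30 to 0.65) on the log2 scale, and the log2 ratio of Rad21 in round spermatids, cKO over control, was -0.71 (-0.85 to -0.56). The other side of each class differed less, with a ratio of -0.28 (-0.50 to -0.06) for Rad21 at pachytene and 0.23 (0.11 to 0.35) for Rec8 in round spermatids. In round spermatids 50.2% of control and 33.3% of cKO cells had a Rad21 UMI, or 16.0% and 8.53% after thinning to 3000 UMIs. Over 8 other settings the Rad21 ratio in round spermatids lay between -0.76 and -0.64 and the Rec8 ratio at pachytene between 0.39 and 0.51, each with the same sign. None of these is a 2-fold difference, and 1 library per genotype cannot tell the genotype apart from the library. Marker sums also differed between the control and cKO cells of the pachytene class. The list for early prophase gave 1635 and 1333 CPM there and that for pachytene 13400 and 14061. The list for round spermatids gave 719 and 809, and that for elongating spermatids 8529 and 6524. The part of the markers in the kleisin shares was not tested.

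At least 2-fold differences between the libraries were counted next. Of 45 pairs of a subunit and a germ-cell class with at least 20 UMIs, 4 differed that much, all lower in the cKO library. In early prophase these were Rad21l (15.7 against 6.45 CPM), Stag2 (16.3 against 4.99) and Smc1a (14.8 against 4.99), 3 of 8 subunits against 6.75% of 12251 genes either way and 6.29% lower. Their log2 ratios were -1.28 (-2.03 to -0.59), -1.71 (-2.55 to -0.94) and -1.57 (-2.42 to -0.80), against a median of -0.13 over all genes. The fourth pair was Stag2 in elongating spermatids, at -1.14 (-1.62 to -0.68), 1 of 8 subunits against 3.52% of genes either way and 3.13% lower, where both levels (3.93 and 1.79) were far below those in spermatogonia. No subunit differed 2-fold in spermatogonia (0 of 7; 4.08% of genes), cells entering meiosis (0 of 8; 9.57%), pachytene and later cells (0 of 7; 3.03%) or round spermatids (0 of 7; 3.36%).

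Some markers of meiotic stages also differed between the libraries within the early prophase class. Dmc1, the recombinase of the earliest prophase, stood at 93.1 CPM in the control and 56.9 in the cKO cells of that class, Stra8 at 14.2 and 6.16, and Piwil1, which comes up towards pachytene, at 427 and 621. The list of 8 genes for the entry into meiosis summed to 582 and 321 CPM there, and the list for pachytene to 5882 and 6584. Other markers differed less, with Sycp1 at 3417 and 3386, Meiob at 219 and 199, and Ccna1, of the pachytene list, at 34.4 and 30.8. The early prophase list itself summed to 9534 and 9161. The X-linked total was 0.763% and 0.439%. The class was then split at the median of its pachytene score. Rad21l, Stag2 and Smc1a were lower in the cKO cells of the lower-score part (392 and 233 cells). They stood there at 38.1 against 18.5, 38.6 against 14.1 and 33.7 against 12.3 CPM. Their ratios there were -1.04, -1.45 and -1.45, against 7.76% of genes that differed 2-fold. These genes were picked from the whole class, and the lower-score part held most of their UMIs. In the control and cKO it held 69 of 83 and 21 of 22 for Rad21l and 70 of 86 and 16 of 17 for Stag2. For Smc1a it held 61 of 78 and 14 of 17. The ratios in this part are thus no separate check. Rec8 (-0.80), Smc1b (-0.66) and Smc3 (-0.63) were also lower in that part, and Stag3 (-0.20) and Rad21 (-0.07) less so. Of the stage markers, Dmc1 (182 and 113) and Stra8 (33.1 and 15.0) differed there too. Meiob, at 273 and 277, and Sycp1, at 3429 and 3574, did not follow them. In the higher-score part (380 and 246 cells) Rad21l had 14 and 1 UMIs, Stag2 16 and 1, and Smc1a 17 and 3. In the whole early prophase class of the cKO library the level of Smc1a (4.99) limits free RNA to 19.7% of UMIs, which could give up to 5.96 CPM of Stag2, above its level of 4.99. In the control class Prm1 and Prm2 limit it to 42.2%, which could give up to 10.7 CPM of Stag2 and 12.2 of Smc1a, below the levels of 16.3 and 14.8, though within the interval of Smc1a (11.7 to 18.4). The part of the stage markers in these 3 differences was not tested. Across 8 other settings the Rad21l ratio passed 2-fold in 6, that of Stag2 in 8 and that of Smc1a in 7, the exceptions being a minimum of 2000 UMIs (Rad21l and Smc1a) and a wider margin between classes (Rad21l). The Stag2 ratio in elongating spermatids passed in 5 of the 8 and reached -0.94, not passing with Leiden clusters, with the wider margin or with no margin. Some ratios given above as under 2-fold passed in other settings. Rec8 in cells entering meiosis, at 0.88 with a range of 0.34 to 1.37, passed with at least 5000 UMIs and with the wider margin. Rad21l in the same class, at -0.45 with a range of -1.06 to 0.20, passed with the wider margin. Rad21 in elongating spermatids, at -0.96 with a range of -1.06 to -0.81, passed with at least 2000 UMIs and without doublets.

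**Figure D4:**
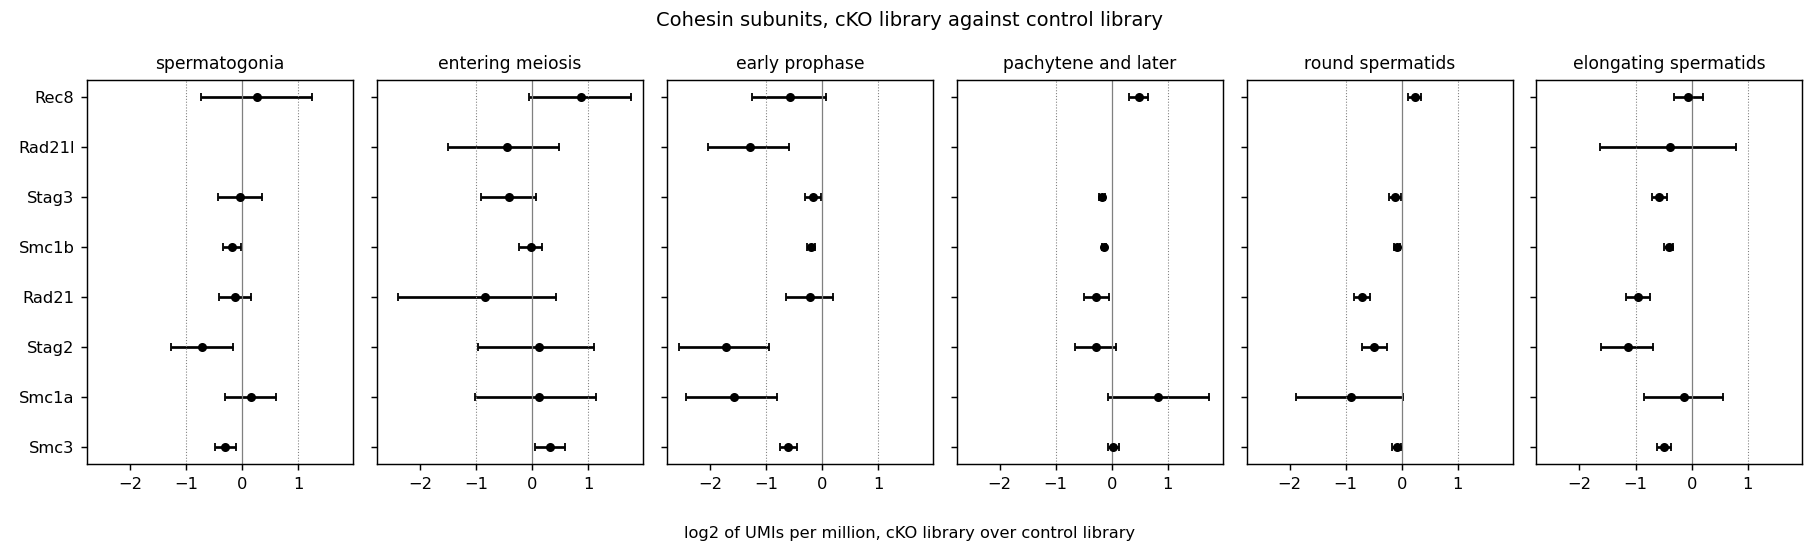
Log2 ratio of CPM, cKO library over control library, for each subunit in 6 germ-cell classes, with 95% counting intervals; dotted lines mark a 2-fold difference, and pairs with under 20 UMIs in all are not drawn. Rad21l, Stag2 and Smc1a in early prophase and Stag2 in elongating spermatids lie below -1, and all other points lie between -1 and 1.

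The mitotic subunits were also measured in somatic cells, which keep Kdm6a. In Sertoli cells (86 and 112) Rad21 stood at 89.3 and 84.3 CPM, Stag2 at 37.6 and 34.0 and Smc1a at 39.2 and 41.5. Leydig cells (96 and 91) held Smc1a at 43.3 and 56.3 and Stag2 at 93.6 and 47.6. The log2 ratio of Stag2 in Leydig cells, cKO over control, was -0.97 (-1.61 to -0.37). No subunit differed 2-fold between the libraries in either somatic class, 0 of 7 and 0 of 6 against 5.38% and 7.08% of genes. Sertoli cells also held Rec8 at 34.5 and 22.7 and Smc1b at 141 and 107, beside 6691 and 7165 CPM of Prm1, a spermatid gene, so germ-cell RNA was present in these droplets. Its part in those values was not tested.

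Genes whose levels ran most like those of each subunit were looked up over the 16 combinations of 8 cell classes and 2 libraries, among 13427 genes, by Pearson's r of log2(CPM + 1). These are descriptions over points that share a library and its depth. Rad21l ran closest to Prdm9 (0.97), the methyltransferase that places recombination hotspots and one of the markers that drew the classes. Ugt8a and Stradb came next. Stag3 ran closest to Pde3b (0.98), Phtf1 and Atf7ip2, and Smc1b to Bub1 (0.97), Rfc4 and Cenpk. Smc1a ran closest to Ppp1ca (0.99), Dynlrb1 and Atrx, Stag2 to Sptbn1 (0.96), Rab9 and Nfe2l2, and Smc3 to Mrm3 (0.97), Specc1 and Fam76b. Rad21 ran closest to Cul4b (0.90), Rtf1 and Kdm6b, and Rec8 to Arfrp1 (0.89) and Gpank1. Among the subunits themselves Stag3 and Smc1b were most alike (0.95), and Rec8 had no gene above 0.89.

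The other genes of the cohesin cycle, 19 in all, were read by role. From spermatogonia to the entry into meiosis 5 of 16 with enough UMIs were at least 2-fold higher in the control (Nipbl, Mau2, Pds5a, Esco2 and Ctcfl), against 9.81% of all genes, and 3 lower (Cdca5, Sgo1 and Pttg1), against 12.6%. In the cKO library 2 of 15 were higher (Nipbl and Esco2), against 12.4%, and 0 of 15 lower, against 14.7%. Of the loaders, Nipbl was highest in pachytene and later cells, at 662 and 586 CPM against 145 and 142 in spermatogonia. Esco2, the acetyltransferase that locks rings on replicating DNA, was highest at entry into meiosis (448 and 340) and stood at 3.92 and 2.90 at pachytene. Ctcfl, the germ-line paralog of the boundary protein Ctcf, stood at 56.2 and 76.2 at entry against 5.29 and 3.61 in spermatogonia. Meikin, which protects REC8 at the first division, was highest in early prophase at 30.3 and 32.3, against 3.02 and 4.51 in spermatogonia, and Sgo2a, its partner in protection, stood at 167 and 149 there. Sgo1, the mitotic protector, went from 71.0 and 68.5 in spermatogonia to 2.37 and 2.54 at pachytene, and Cdca5 (sororin) from 43.8 and 33.4 in spermatogonia to 7.19 and 7.04 in early prophase and 18.4 and 17.5 at pachytene. Sgo2b and Hdac8 gave 10 UMIs or fewer in their highest class of either library.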

How the data were processed

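Single-cell matrices hold the authors' UMI counts as deposited, made with Cell Ranger on mm10 per the submitters' processing notes, which also name Seurat 4.1.0, and list every kit barcode. Barcodes with at least 3000 UMIs were kept, and doublets called by Scrublet (591 and 512) stayed in. Each cell's marker scores were averaged over 10 neighbours in 30 principal components of 2000 variable genes, without the members, and a cell went to its highest list unless the next was within 0.1. Levels are CPM over a class, with exact Poisson intervals. Shares have exact Clopper-Pearson intervals and ratios an exact conditional binomial interval. The interval of a difference between shares joins the Clopper-Pearson limits of both by square and add, and is approximate. A 2-fold difference was counted where both sides together held at least 20 UMIs. Free RNA was read from barcodes with 10 to 100 UMIs. With 1 library per genotype no test was made. The precision is set by UMIs, which ranged from 0 to 17746 for a member in a class.

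ATAC-seq peaks were called by MACS2 after Bowtie2 alignment to mm10, per the submitters' processing notes, and the deposited fold enrichment of each peak is the authors' ratio. H3K27me3 CUT&Tag regions carry the authors' summed signal from SEACR, per the submitters' processing notes. A promoter was covered if a region lay within 1000 bases of its start in RefSeq GRCm38.p6. Promoter windows overlapped 31.5% of the time with peaks of control ATAC replicate 1, and 1.30% after a shift of 10000 bases. With H3K27me3 regions of control replicates 1 and 2 they overlapped 9.35% and 11.9% of the time, and 4.19% and 6.79% after the shift. The builds named for the series are mm10 and mm39, and this smaller gap leaves the build of the H3K27me3 regions less sure. The bulk tables pair no transcript with a gene and were not used. Analyses used scanpy 1.11.5, scipy 1.17.1 and numpy 2.4.6. The ratio calls were run on counts simulated from a profile pooled over both libraries, for cells entering meiosis and early prophase. Such counts hold counting error only, so they cannot show how often libraries differ for other reasons.

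The genes named are the members, 19 other genes of the cohesin cycle, and for each member the 3 genes whose log2(CPM + 1) correlated best with it over 16 points, of which 1 is not reported here. The members and lists were chosen with earlier results of these data known. Alternatives were other UMI minimums, gene and mitochondrial filters, doublets left out, Leiden clusters, other margins, thinning, free RNA subtracted, abundant genes left out, and another start for peaks. Keeping every cell without a margin, the split of early prophase and the other start were chosen after seeing the data.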

Additional observations from a re-analysis of the deposited data

How the results depend on the processing

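The meiotic kleisin share was higher in early prophase than in spermatogonia under every alternative run, in both libraries. Its size was 28.8 points in the control and 17.9 in the cKO library with at least 5000 UMIs, and 29.6 and 17.7 with Leiden clusters. The cause of these sizes was not tested. With free RNA subtracted the size was 65.4 and 90.8. Free RNA was taken off at the share read in Leydig cells, 49.0% and 51.2%. In early prophase the limits given above are 42.2% and 19.7%. All Rad21 of cKO early prophase was thereby removed, so the 90.8 was set by the subtraction. Of 45 pairs of a subunit and a class, 4 differed 2-fold between the libraries, and 3 to 5 did over 10 alternatives. With the 5′ end of the gene record as start, chosen after seeing the data, Rad21l had an ATAC peak in 5 libraries in place of 0, Stag3 in 0 in place of 5, and Rad21l an H3K27me3 region in 2 in place of 0. Among single values, 16 of 360 log2 ratios and 29 of 144 levels lay outside the 95% counting interval of the reported value. Only 16 levels were run through each alternative, so most levels printed above have no such check. The levels moved unevenly: 11 of 16 lay outside with Leiden clusters and 9 of 16 without the 100 most abundant genes. All 16 stayed inside without doublets and with the gene and mitochondrial filter. No paired analysis was possible because each genotype has 1 single-cell library and the peak counts come from no test. The bulk testis comparison with its alternatives was not run, since its tables list transcripts that no table used here pairs with genes. Depth limits Rad21l most, with 15 UMIs over the spermatogonia and cells entering meiosis of the cKO library.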
